A study of Homo sapiens with 10 samples.

Results

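Long γH2AX deserts are stretches of at least 300 kb in which K562 cells held little γH2AX 1 h after irradiation relative to their H2AX signal. They were found on the autosomes in windows of 10 kb, each window being expressed as its mean coverage divided by the mean of its own track. A window counted as low where the log2 of relative 1 h γH2AX minus the log2 of relative H2AX, with 0.05 added to each, was under -0.5 in both 1 h libraries. A desert was an unbroken run of at least 30 such windows. Of 260555 windows with a mean relative K562 H2AX of at least 0.25, called usable here, 83398 were low, which is 32.0%, and they fell into 16604 runs. Of these runs 6217 were a single window and 346 were long enough to be deserts. The 346 deserts held 14949 windows, or 149 Mb, which was 5.74% of the usable windows and 17.9% of the low ones. Because the 1 h values chose the deserts, those values are given here as a description only.

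γH2AX is the histone variant H2AX phosphorylated by damage-activated kinases, mainly ATM, in chromatin around DNA double-strand breaks, and it spreads far from the break. H3K27me3 is the trimethyl mark that Polycomb repressive complex 2 places on histone H3. It forms broad domains over silenced chromatin and marks different regions in different cell types.

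The study mapped chromatin with CUT&RUN, in which an antibody tethers a nuclease that releases the DNA around the bound histone. K562 is a human erythroleukaemia line and HepG2 a human liver carcinoma line. The cells were given 6 Gy from a cobalt source. γH2AX was profiled in K562 cells 1 h later (n = 2) and 24 h later (n = 2) and in HepG2 cells 1 h later (n = 1). H2AX of untreated K562 cells (n = 2) and untreated HepG2 cells (n = 2) served as the reference, although the antibody entry of those libraries names histone H4. H3K27me3 was profiled in irradiated K562 cells at 1 h (n = 1). γH2AX of unirradiated cells was not analysed here, so a low ratio at 1 h and a state that preceded irradiation cannot be told apart. The labels do not say that replicates came from separate cultures, so p-values measure only the spread between these libraries.

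The tracks had a mean depth of 0.326 to 1.78 reads per base, and the median desert held 4207 to 22300 reads per library, so counting error on a desert's mean was small. Over a stretch of the short arm of chromosome 9 that K562 is known to have lost, the K562 tracks read at most 0.00429 of their means and the HepG2 tracks at least 0.906. Replicate 1 at 24 h stood apart: it read 0 in 36.0% of the usable 1-kb bins but in 2.98% of the desert bins. Where both 1 h libraries were at 2 or more times their mean, 100% of the bins read 0 in it, against 0.160% in replicate 2. No label or header states how these zeros arose. The track was left out of the main comparisons and entered only an alternative limma fit. The low coverage values moved in steps of a 60-base read in the 1 h K562 γH2AX and H3K27me3 libraries and of a 41-base read in all others. Read length and group therefore cannot be told apart.

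The deserts ran from 300 to 1750 kb, with a median of 380 kb. 72 reached 500 kb and 3 reached 1000 kb. The longest was chr7:27880001-29630000 (hg19, as are all positions here). The next were chr11:44810001-45820000, of 1010 kb, and chr17:58760001-59760000, of 1000 kb. Those 3 had a 1 h log2 ratio to H2AX of -1.19, -1.10 and -1.32 in replicate 1. The rest of the 12 longest were chr3:10370001-11310000, chr22:27130001-28060000, chr10:12310001-13130000, chr7:155580001-156400000, chr17:5520001-6340000, chr16:54080001-54890000, chr11:11020001-11820000, chr15:62560001-63340000 and chr8:40560001-41340000. The 12 had a mean H3K27me3 between 2.0 and 4.51 times the track mean.

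Relative γH2AX at 1 h had a median over deserts of 0.508 in replicate 1 (0.241 to 3.55) and 0.352 in replicate 2 (0.165 to 2.50). The K562 H2AX libraries had medians of 1.21 and 1.16 over the same deserts. Over all usable windows the 1 h medians were 0.804 and 0.781. The log2 ratio to H2AX had a median of -1.14 in replicate 1 and -1.62 in replicate 2. Replicate 2 was the lower one in all 346 deserts. The deserts held 5.64% of the autosomal bins but 2.96% and 2.05% of the autosomal 1 h signal.

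**Figure D1:**
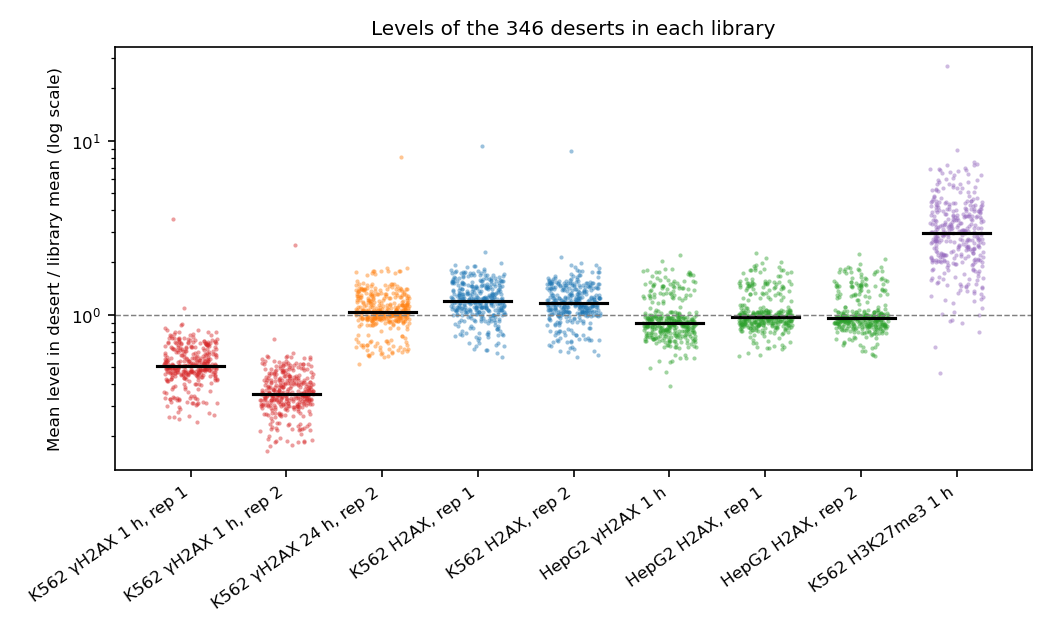
Relative level of each library over the 346 deserts (vertical axis, multiples of the library's mean, log scale). The 2 libraries of K562 γH2AX at 1 h have medians of 0.508 and 0.352, H3K27me3 has a median of 2.94, and the used 24 h, HepG2 and H2AX libraries lie near 1.

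The deserts were also chosen on one 1 h library with the H2AX library of the same number and read in the other pair, a check added after the data had been seen. Choice on the pair numbered 1 gave 332 deserts. In the pair numbered 2, 99.6% of their windows were low, against 41.2% of all windows, and the median log2 ratio was -1.61. Choice on the pair numbered 2 gave 919 deserts, of which 87.2% of windows were low in the pair numbered 1, against 33.1% of all windows. The median there was -0.97. Windows chosen on either pair were thus mostly low in the other. Both pairs belong to the rule, so this describes how alike the replicates were and is no test of the deserts. The number of deserts depended on replicate 1 at 1 h. Without that library the rule found 953 deserts of 48762 windows.

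The lowest deserts lay mostly on chromosomes 19 and 20. chr20:1590001-2080000 had relative γH2AX of 0.325 and 0.235 at 1 h against 1.18 and 1.13 for H2AX, or log2 ratios of -1.72 and -2.11. chr19:14900001-15220000 had 0.501 and 0.382 against 1.79 and 1.68, or -1.75 and -2.08. In both, each 1 h library lay far below each H2AX library, which follows from their choice on these values. The third lowest was chr6:138740001-139090000, with log2 ratios of -1.44 and -2.13. Of the other 5 among the lowest 8, chr19:8950001-9260000, chr19:13300001-13840000 and chr19:15570001-15940000 were on chromosome 19, and chr20:2130001-2440000 and chr20:4210001-4640000 were on chromosome 20.

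At the length limit the values ran on smoothly. The 14 deserts of 300 kb had a median H3K27me3 of 3.39 and the 30 runs of 290 kb just under the limit had 3.20. The lowest inside were chr16:3930001-4230000, chr2:88550001-88850000 and chr8:142450001-142750000. Just outside were chr19:54080001-54370000, with 1 h log2 ratios of -1.33 and -1.87, chr6:32170001-32460000, with -1.31 and -1.71, and chr1:225660001-225950000, with -1.29 and -1.71.

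H3K27me3, which the rule did not use, was high in most deserts. Its mean over a desert had a median of 2.94 times the track mean, with quartiles at 2.17 and 3.93. Of the 346 deserts, 286 (82.7%) had a mean of 2 or more and 80 had 4 or more. A level of 2 or more was found in 68.4% of the desert windows and in 18.2% of all usable windows. At 1.5 or more the shares were 80.0% and 22.9%, and at 3 or more 46.1% and 11.4%. The median window held 2.80 in the deserts and 0.181 in the usable windows outside them. The deserts took up 17.9% of the autosomal H3K27me3 signal. There was 1 H3K27me3 library, so these values have no replicate check and no test.

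The relation was uneven in the other direction. Of the 47389 windows at 2 or more, 90.6% were low in γH2AX at 1 h, but only 21.6% lay in a desert, so most marked windows were in shorter runs. Of the windows with H3K27me3 under 0.5, 4.27% were low at 1 h. H3K27me3 was higher in longer runs. Its median window was 0.830 in runs of 1 window, 1.33 in runs of 2 to 4, 1.87 in runs of 5 to 9, 2.42 in runs of 10 to 19 and 2.77 in runs of 20 to 29. It was then about level, at 2.79 in runs of 30 to 49 windows and 2.84 in runs of 50 or more. Among the deserts themselves, length and H3K27me3 had a Spearman rho of 0.02 (n = 346, all points from the same library).

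The flanks of a desert were the usable windows within 1 desert length on each side that lay in no other desert. They were therefore shorter where deserts were close together. These flanks held less of the mark. Their median H3K27me3 was 1.34, and the desert exceeded its flanks in 319 of 346 cases, by 2 times or more in 187. The ratio had a median of 2.20 and ran from 0.351 to 34.6. Its highest value was at chr15:66220001-66580000. K562 H2AX was slightly lower in the deserts than beside them, with a median ratio of 0.932, and HepG2 H2AX was level, with a median ratio of 0.999.

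The mark varied inside the deserts. In 108 deserts each window held at least 1 times the mean, and in 113 at least 1 window was under 0.5. Those 282 windows were 1.89% of the desert windows, whereas 61.0% of all usable windows were that low. Their 1 h log2 ratios had medians of -0.88 and -1.24, against -1.14 and -1.64 in the other desert windows. Windows as low in H3K27me3 outside the deserts had medians of 0.26 and 0.39. The rule held each desert window under -0.5 in both 1 h libraries, so this gap was fixed by the choice and nothing is read from it. The low stretches were short: 168 of 208 were a single window.

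The longest low stretch, of 90 kb, was chr12:55640001-55730000. It lay in chr12:55570001-55870000, the desert with the least H3K27me3, whose mean of 0.460 was below the 1.31 of its flanks. This desert had relative 1 h γH2AX of 0.564 and 0.421 against 1.04 and 1.08 for H2AX, 1.09 in 24 h replicate 2, and 1.04 in HepG2 γH2AX against 0.994 and 1.04 in HepG2 H2AX. Only the 1 h K562 libraries were low there. The next lowest in H3K27me3 were chr8:128000001-128330000 at 0.656, chr7:76260001-76590000 at 0.795, chr9:92950001-93340000 at 0.9, chr20:23820001-24140000 at 0.920 and chr8:129670001-130030000 at 0.930. Just 7 deserts had a mean under 1.

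At the other end, chr22:22900001-23520000 had an H3K27me3 level of 26.8, which like all H3K27me3 levels in this ranking is not divided by H2AX. This desert lies in a segment that was raised in every K562 library used: H2AX read 9.28 and 8.74, 1 h γH2AX 3.55 and 2.50, and 24 h replicate 2 8.06. The HepG2 H2AX libraries read 0.901 and 0.882 there. Its 1 h level was thus above the mean of the track and low only relative to H2AX. The next highest were chr1:10700001-11080000 at 8.86, chr7:138300001-138720000 at 7.54, chr1:8970001-9590000 at 7.35, chr1:11360001-11710000 at 7.27 and chr7:155110001-155430000 at 7.25. In chr1:10700001-11080000 the flanks held 0.356, far less than the desert.

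The longest desert shows the 2 signals side by side. Relative 1 h γH2AX over it was 0.507 and 0.331, H2AX was 1.22 and 1.19, 24 h replicate 2 was 1.09, and HepG2 γH2AX was 0.965 against 1.06 and 1.04 for HepG2 H2AX. Only the 1 h K562 libraries were low. In 4 successive stretches of 430, 430, 430 and 460 kb along it H3K27me3 read 3.20, 1.51, 1.5 and 1.81. Replicate 1 at 1 h read 0.476, 0.481, 0.527 and 0.542, and replicate 2 read 0.319, 0.313, 0.350 and 0.341. The rule held each window low at 1 h, so nothing is read from these 1 h values.

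**Figure D2:**
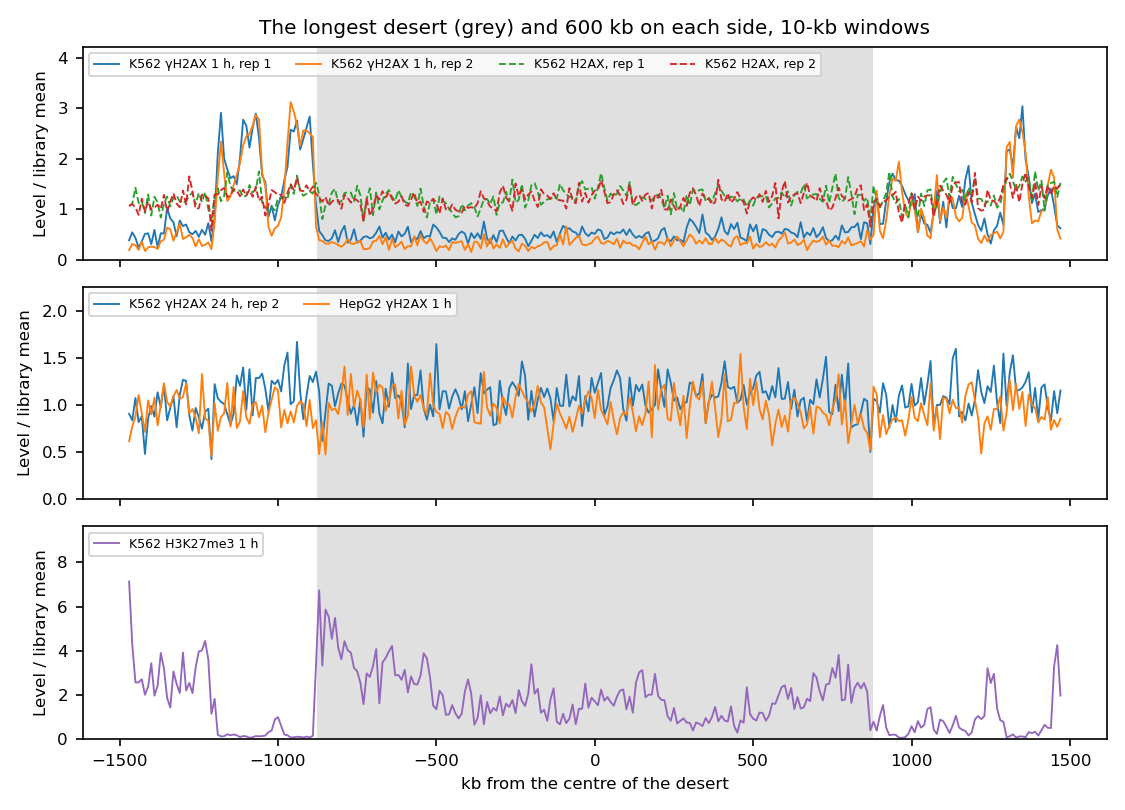
Relative level (multiples of the library's mean) in 10-kb windows across the longest desert, shaded, and 600 kb on each side; the horizontal axis is the distance from its centre in kb. K562 γH2AX at 1 h drops at both edges while H2AX, 24 h replicate 2 and HepG2 γH2AX run through, and H3K27me3 averages 2.0 inside. A neighbouring desert at the left edge is not shaded.

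The edges of the deserts were compared over 652 borders that had usable windows on both sides, 5 windows inside against 5 outside. Relative to H2AX, 1 h γH2AX differed, inside minus outside, by a median log2 of -0.76 in replicate 1 and -0.98 in replicate 2, a step the rule itself places there. H3K27me3 was higher inside at 560 borders (85.9%), by a median log2 of 1.56, and by more than 1 at 383 of them. The 24 h replicate 2 ratio did not step: its median difference was 0.01 and it was lower inside at 48.6% of the borders. HepG2 likewise had a median difference of -0.00 and was lower inside at 50.5%. K562 H2AX differed by -0.04 and HepG2 H2AX by 0.01.

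Averaged over the borders, the change took place within 2 windows. Relative 1 h γH2AX went from 1.39 at 15 kb outside to 0.626 at 5 kb inside in replicate 1, and from 1.40 to 0.459 in replicate 2. By 105 kb inside they read 0.524 and 0.360. H3K27me3 went from 1.12 at 15 kb outside to 2.89 at 5 kb inside, was highest at 3.67 at 35 kb and read 3.35 at 105 kb. With each desert cut into equal outer and middle parts, the outer parts had a median of 3.06 and the middle part 2.75. The middle was the higher in 108 deserts. The window nearest the border, at 2.89, was nevertheless below the mean at each distance farther in, up to 195 kb.

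**Figure D3:**
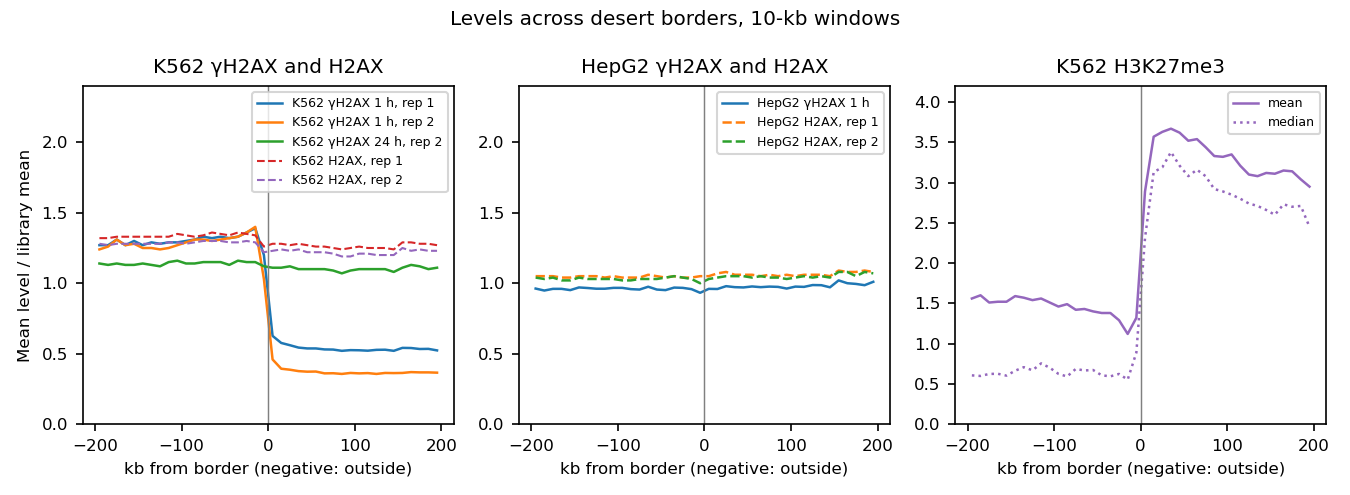
Mean relative level (multiples of the library's mean) against distance from a desert's border in kb, positive inside, in K562 γH2AX and H2AX, HepG2 γH2AX and H2AX, and K562 H3K27me3 (mean and median). K562 γH2AX at 1 h falls and H3K27me3 rises within 2 windows of the border, while 24 h replicate 2 and HepG2 γH2AX show no step.

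At 24 h the deserts stood out little, but the 24 h ratio varied little anywhere. Over all usable windows the log2 ratio of 24 h replicate 2 to H2AX had an SD of 0.38, against 0.71 and 0.97 at 1 h. The log2 ratio between the 2 K562 H2AX libraries had an SD of 0.25. Regions of any kind could thus differ less in this track than at 1 h. In replicate 2, the 1 library used, the relative level had a median of 1.04 over deserts (0.519 to 8.06). Its log2 ratio to H2AX had a median of -0.18, from -0.55 to 0.29. This comparison and the 1 h one share the H2AX libraries. The ratio was below 0 against both H2AX libraries in 275 deserts and above 0 against both in 51, and its sign depended on the H2AX library in the other 20. A value under -0.5 was reached by 4 deserts as a whole. Among desert windows 72.4% were below 0, against 47.8% of all usable windows. A window under -0.5 was found for 14.4% of those in deserts and 9.25% of all. The shares under -0.25 were 39.9% and 25.1%, and those over 0.25 were 7.08% and 28.4%, so windows above H2AX were scarcer in deserts than elsewhere. The flanks had a median of -0.20, so the mildly lower ratio was not limited to the deserts. The relative 24 h level had a median of 1.04 over deserts, 1.09 over their flanks and 0.999 over all usable windows, the last taken singly. At the borders this level differed by a median log2 of -0.03, and it was lower inside at 57.4% of them. The K562 H2AX libraries, the divisor of the ratio, had medians of 1.21 and 1.16 over deserts. Over all usable windows they had 0.960 and 0.974. The part of the divisor in the lower ratio was not tested. The 24 h ratio was not tested, since it is a single library and is divided by the H2AX libraries that the rule used.

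The deserts highest at 24 h were on chromosomes 8, 7 and 6. chr8:133320001-133660000 read 1.30 at 24 h against 1.05 and 1.04 for H2AX, a log2 ratio of 0.29, after 0.463 and 0.318 at 1 h. chr7:111470001-111840000 read 1.79 against 1.43 and 1.5, a log2 ratio of 0.28. Both lay above both H2AX libraries. chr7:69010001-69450000 and chr6:105850001-106190000 followed at 0.22. The lowest was chr16:12240001-12660000, which read 1.01 against 1.57 and 1.40, a log2 ratio of -0.55. chr17:65370001-65710000 and chr1:11360001-11710000 stood at -0.52 and chr15:66220001-66580000 at -0.51. At 1 h chr16:12240001-12660000 had read 0.652 and 0.431.

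In HepG2 cells, given the same dose and taken at the same time, γH2AX over the K562 deserts lay close to H2AX. It did so over most of the genome. Over all usable windows the HepG2 log2 ratio had an SD of 0.32, against 0.25 between the 2 HepG2 H2AX libraries and 0.71 and 0.97 for K562 at 1 h. Relative γH2AX had a median of 0.897 over them (0.390 to 2.21), against 0.970 and 0.952 in the HepG2 H2AX libraries. The log2 ratio had a median of -0.11, from -0.61 to 0.14. It was below 0 against both H2AX libraries in 292 deserts and above 0 against both in 34, with the sign depending on the H2AX library in 20. 1 desert was under -0.5 as a whole. Of the desert windows 65.7% were below 0, against 51.1% of all usable windows. A window under -0.5 was found for 11.8% of those in deserts and 7.71% of all. Under -0.25 the shares were 33.6% and 23.1%, and over 0.25 they were 10.1% and 19.5%. The flanks had a median of -0.12, and 171 deserts were below their flanks.

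No window passed the test for HepG2 γH2AX against HepG2 H2AX. limma with Benjamini-Hochberg adjustment called 0 of the 14949 desert windows and 0 of 260555 overall (0%), with a lowest adjusted p in the deserts of 0.446 and a median SE of 0.27 per window. At an unadjusted p under 0.05, 1148 desert windows (7.68%) were lower and 105 (0.702%) higher, against 5.37% lower and 2.43% higher overall. When the 3 HepG2 libraries were fitted alone, leaving 1 residual degree of freedom, 646 desert windows (4.32%) were called lower and 49 (0.328%) higher, against 2.78% and 1.36% overall. Leaving out K562 1 h replicate 1 gave 982 lower and 75 higher in the deserts, against 3.73% and 0.822% of all windows. Leaving out K562 1 h replicate 2 gave 997 and 81, against 3.70% and 0.804%. The calls thus rest on which libraries set the estimate of the spread, and HepG2 γH2AX was a single library.

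The HepG2 extremes were on chromosomes 16 and 18. chr16:1030001-1350000 read 0.390 in HepG2 γH2AX against 0.634 and 0.577 in H2AX, a log2 ratio of -0.61. Its flanks stood at -0.45, so the lowering went on past the desert. chr1:22860001-23340000 followed at -0.47, and chr1:24310001-24720000 and chr1:8970001-9590000 were both at -0.43. At the top, chr18:1790001-2240000 read 1.09 against 0.957 and 1.01, a log2 ratio of 0.14, and had an H3K27me3 of 0.994. chr16:7380001-7890000 and chr4:55560001-55900000 stood at 0.12 and chr7:69860001-70170000 at 0.11.

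The 24 h and HepG2 ratios both went down with the H3K27me3 level of the desert, which was measured in K562 only. In deserts with H3K27me3 under 1 (7), from 1 to 2 (53), from 2 to 4 (206) and of 4 or more (80), the 24 h median was 0.03, -0.05, -0.17 and -0.30. The flanks of the same deserts had -0.02, -0.03, -0.20 and -0.31. The HepG2 median was 0.01, -0.05, -0.11 and -0.25, with flanks at 0.00, -0.04, -0.12 and -0.23. The order was the same in and beside the deserts. Over the 346 deserts H3K27me3 and the 24 h ratio had a Spearman rho of -0.47, and H3K27me3 and the HepG2 ratio -0.56. The 24 h and HepG2 ratios, which share no library, had 0.56. K562 H2AX, the divisor of the 24 h ratio, also went up with H3K27me3, with a rho of 0.52 and a median of 1.44 in the most marked group against 1.03 to 1.15 in the others. Its part in these relations was not tested. The 1 h medians over the same 4 groups ran from -1.01 to -1.18 in replicate 1 and from -1.55 to -1.63 in replicate 2, with a rho to H3K27me3 of -0.25 over the deserts. The rule bounds these 1 h values from above.

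**Figure D4:**
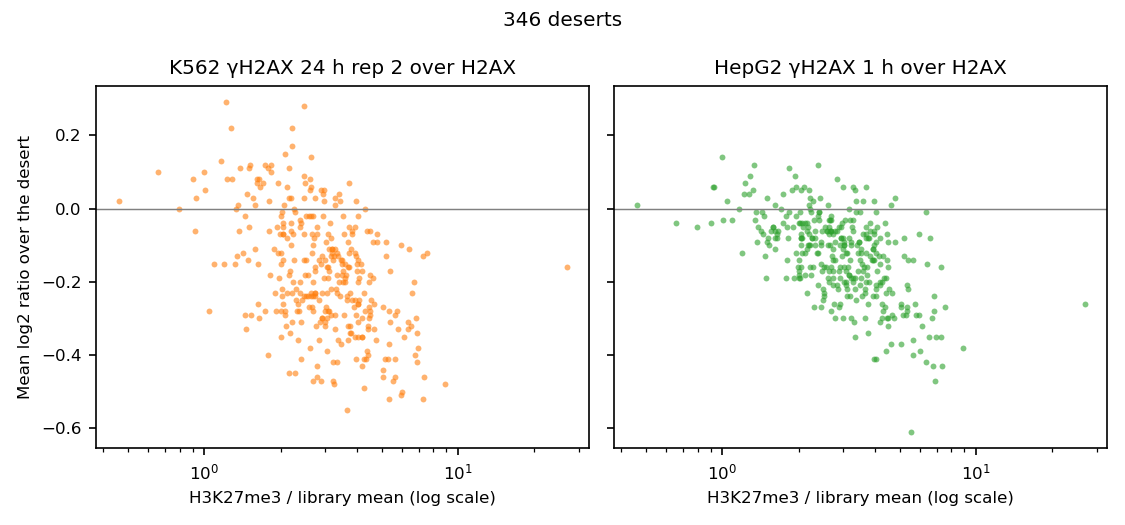
Log2 ratio to H2AX of 24 h replicate 2 in K562 and of HepG2 γH2AX at 1 h (vertical axes) against the mean K562 H3K27me3 of each desert (horizontal axis, multiples of the track mean, log scale). Each point is 1 of the 346 deserts, and the ratios are lower at higher H3K27me3, with a Spearman rho of -0.47 and -0.56.

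Nearly all peaks that the authors called at 1 h lay outside the deserts. Of 41578 autosomal peaks in the deposited list of replicate 1, 2 had their centre in a desert, or 1.34 per 100 Mb against 1693 in the other usable windows. Of 45605 in replicate 2 there was 1, or 0.669 against 1856. These lists come from the same libraries as the rule and add no separate evidence. The 3 peaks, at chr17:59759451-59759846, chr8:102347395-102347730 and chr9:96209014-96209614, had a fold enrichment of 2.12, 1.78 and 1.89 in the authors' lists. None had a q under 0.05. The 24 h lists held 8 and 13 autosomal peaks, none in a desert. The HepG2 list held 155, of which 5 were centred in other usable windows and 1 in a desert, or 0.204 and 0.669 per 100 Mb. The one in a desert was at chr1:236260647-236260689 in chr1:235680001-236310000, with an authors' fold of 8.11.

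The deserts were spread unevenly over the chromosomes. They took up 15.7% of the usable windows of chromosome 16, with 26 deserts over 11.8 Mb, and 11.2% to 11.7% of chromosomes 15, 20, 21 and 22. Chromosome 13 had 2 deserts over 0.903% of its windows and chromosome 14 had 3 over 1.21%. These 2 chromosomes also had the lowest mean K562 H2AX, at 0.731 and 0.717, and whether that bears on their desert count was not tested. Chromosome 19 had 41.4% of its windows low but only 7 deserts, or 4.74%, so its low windows were in shorter runs. The largest number, 30, was on chromosome 1. Of the desert windows 10.3% lay within 5 Mb of the first or last window with bins on their chromosome, against 7.85% of all usable windows. Where the short arm has no bins, the first such window is not at the chromosome end.

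**Figure D5:**
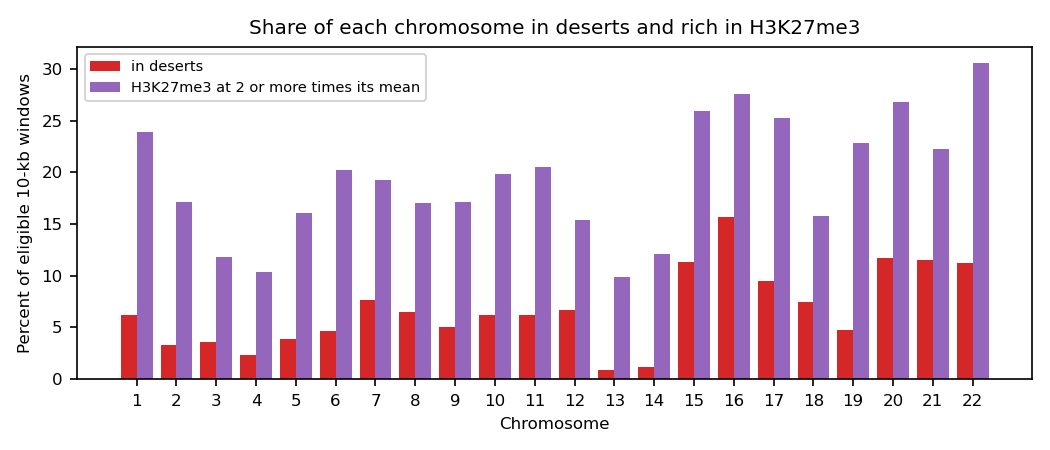
Percent of each autosome's usable windows that lay in deserts (red bars) and that held H3K27me3 at 2 or more times its mean (purple bars), from 0. Chromosome 16 has the highest desert share at 15.7%, and chromosomes 13 and 14 the lowest at 0.903% and 1.21%.

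Some deserts were neighbours. The median gap between 2 deserts in sequence was 2.11 Mb, but 22 gaps were of 100 kb or less, and 43 deserts stood in 21 such chains. The only chain of 3 ran over chr20:1590001-2820000, with 1110 kb of desert in it. The 65 windows in these gaps had 1 h log2 ratios with medians of -0.12 and -0.24 and a median H3K27me3 of 0.505, and 10.8% reached 2 or more. The rule places the gaps where the 1 h ratio is higher, and their H3K27me3 was below the 2.80 of the median desert window. Their medians at 24 h and in HepG2 were -0.08 and -0.16.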

How the data were processed

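CUT&RUN coverage tracks of 10 libraries and the authors' peak lists for the 5 γH2AX libraries were used, on hg19. Per the submitters' processing notes, BWA 0.7.12, SAMtools and MACS2 were used; their settings are not given in the sources used here. The deposited tracks hold signal as mean read coverage in 1-kb bins, not scaled to depth. The deposited peak lists hold the fold enrichment (a ratio, its control not stated) and −log10 p and q that the authors' peak caller gave for each library.

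Each bin was divided by its track's mean without chromosome Y and averaged into windows of 10 kb, which needed 5 of 10 bins and a mean relative K562 H2AX of 0.25. Ratios are on the log2(value + 0.05) scale, so folds at low values are understated. A desert's value is the mean over its windows. Relative levels show the distribution within a library, not its absolute amount. Peaks were counted by their centre.

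HepG2 γH2AX was tested against HepG2 H2AX with limma 3.58.1 (R 4.3.3) with a mean trend, over all windows of 9 libraries in 6 groups (3 residual degrees of freedom), and adjusted by Benjamini-Hochberg. 24 h replicate 1 was left out, except in an alternative fit, which also called 0 desert windows lower and 0 higher. The code of the finder and the fit was run on simulated data with planted runs and changes. The simulated noise was simpler than that of these libraries, so nothing on power here is read from it. Python 3.11.15 did the rest.

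Named deserts are the 12 longest, the 8 lowest at 1 h, the 6 highest and 6 lowest in H3K27me3, the 4 highest and 4 lowest at 24 h and in HepG2, and 3 on each side of the length limit. The members and lists were chosen with earlier results of these data known. Thresholds, run length, pseudocount, scaling, H2AX minimum and single libraries were varied. No hg19 gene annotation was used here, so deserts carry no gene names.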

Additional observations from a re-analysis of the deposited data

Results flagged for a closer look

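In 34 deserts (9.83%) HepG2 γH2AX at 1 h lay above both HepG2 H2AX libraries, while both K562 1 h libraries lay below K562 H2AX, as the rule required. The highest HepG2 log2 ratio of a desert was 0.14. Of single windows, 65.7% in deserts and 51.1% of all usable ones were below 0 in HepG2, so windows not below 0 were scarcer in deserts. The difference between the lines was not tested, since HepG2 γH2AX was 1 library and the K562 values chose the deserts. In 51 deserts (14.7%) 24 h replicate 2 lay above both K562 H2AX libraries, while both 1 h libraries lay below. At 24 h 72.4% of the desert windows and 47.8% of all usable windows were below 0, so here too windows not below 0 were scarcer in deserts. The difference between the times was not tested either, and the times share their H2AX libraries. The main comparisons did not use 24 h replicate 1. Its median level over the deserts was 1.71. That lay above the 1.21 and 1.16 of the K562 H2AX libraries and the 1.04 of replicate 2 at 24 h. This track read 0 in 36.0% of the usable bins, and in 100% of those where both 1 h libraries were at 2 or more times their mean. Its mean includes those zeros, which raises its relative level elsewhere, so 1.71 is not a level comparable with the other libraries. In the raised segment at chr22:22900001-23520000 the same track read 0.162, where replicate 2 read 8.06.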

How the results depend on the processing

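The medians of the 24 h and HepG2 ratios over desert windows stayed below 0 under each alternative run; single deserts did not all keep their sign, which differed between the H2AX libraries in 20 deserts at 24 h and 20 in HepG2. A threshold of -0.35 gave 580 deserts of 26987 windows with 61.1% at H3K27me3 of 2 or more, a 24 h median window of -0.13 and a HepG2 median of -0.10. A threshold of -0.75 gave 69 deserts of 2665 windows, a median length of 360 kb, 78.2%, -0.24 and -0.14. Runs of 20 windows gave 793, 25622, 280 kb and 67.3%, and runs of 50 gave 72, 4751, 620 kb, 69.1% and a HepG2 median of -0.14. Allowing 1 failing window gave 787 deserts of 39535 windows, 420 kb, 55.0%, -0.10 and -0.08. Median-of-ratios scaling gave 185 deserts of 7282 windows, 360 kb, a 24 h median of -0.25 and 98.6%, but 38.6% of all windows then passed. The H3K27me3 share was 66.4% and 72.0% with pseudocounts of 0.01 and 0.1, and 69.6% with an H2AX minimum of 0.5. It was 80.0% and 46.1% at levels of 1.5 and 3, against 22.9% and 11.4% of all windows, and 65.5% against 17.9% when divided by HepG2 H2AX. Choice on the libraries numbered 1, added after seeing the data, gave 69.9%. Choice on those numbered 2 gave 919 deserts of 46526 windows, 430 kb, 50.4%, -0.07 and -0.06. At q under 0.05, 0 peaks of either 1 h list were centred in a desert. The causes were not tested.

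Leaving out 1 library at a time gave 272 to 953 deserts of 11194 to 48762 windows, lengths of 380 to 430 kb, shares of 49.9% to 69.9%, 24 h medians of -0.22 to -0.06 and HepG2 medians of -0.13 to -0.06. The largest set came without 1 h replicate 1. It held all 14949 windows, which made up 30.7% of it. limma's calls in the deserts ran from 0 to 997 lower and from 0 to 81 higher, and the HepG2 libraries alone gave 646 and 49. Same-numbered libraries deviated together with correlations of 0.02, 0.05 and 0.07, so the numbers do not pair them, and with the replicate block limma called 0 desert windows either way. Without an H2AX minimum it called 32 lower and 54 higher over all windows, with 0 in the deserts. The 24 h, HepG2 and H3K27me3 values each rest on 1 library.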
